A study of Homo sapiens with 4 samples.

Results

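The genes FHIT, WWOX, IMMP2L, MACROD2, LRP1B, DLG2, CTNNA3 and NBEA are named here as giant genes at common fragile sites, and their contacts with the ribosomal RNA gene clusters (rDNA) are described in K562 cells. They were taken by name, and a contact region was assigned to a gene when it overlapped the span of that gene in hg38 without any widening. These 8 genes belong to 12455 annotated genes that held at least 1 read. Of 50751 and 50221 contact regions in the 2 untreated libraries, 134 and 140 lay in the 8 genes, and of 47042 and 49689 regions in the 2 hemin libraries, 165 and 165 did. The genes together spanned 12.23 Mb with 3614 EcoRI sites.

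Common fragile sites are chromosomal regions that break or leave gaps in metaphase when DNA replication is slowed. Many of them lie within very long genes, in which replication can remain unfinished at mitosis and deletions are frequent in tumours. rDNA codes for ribosomal RNA and sits on the short arms of the acrocentric chromosomes. None of the 8 genes lies on an acrocentric short arm, but NBEA lies on the long arm of an acrocentric chromosome, chromosome 13. Whether its contacts were with rDNA of the same chromosome cannot be told from these data.

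K562 is an established human erythroleukemia cell line. The 4 libraries were made by circular chromatin conformation capture (4C), in which cross-linked chromatin is cut, ligated and amplified from a viewpoint, here in the rDNA intergenic spacer, after a first cut with EcoRI. The 2 untreated libraries came from cells without treatment, and the 2 hemin libraries came from the same line kept for 108 h in 50 µM hemin, an inducer of erythroid differentiation, so every comparison is between states of 1 cancer cell line. The study calls the libraries biological replicates, and the labels name no batch of preparation or sequencing. Libraries held from 19548906 to 34000240 reads, and in bulk 4C a contact made in more cells cannot be told apart from one made more often per cell.

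FHIT spanned chr3:59747277-61251459 (1.50 Mb, minus strand) and WWOX spanned chr16:78099400-79212667 (1.11 Mb, plus strand). MACROD2 spanned chr20:13995369-16053197 (2.06 Mb, plus strand) and IMMP2L spanned chr7:110662644-111562517 (0.900 Mb, minus strand). LRP1B spanned chr2:140231423-142131016 (1.90 Mb, minus strand) and CTNNA3 spanned chr10:65912457-67763637 (1.85 Mb, minus strand). DLG2, the longest, spanned chr11:83455012-85628335 (2.17 Mb, minus strand), and NBEA, the shortest, spanned chr13:34942270-35673022 (0.731 Mb, plus strand). The GC content of the 8 genes ran from 34.8% in LRP1B to 42.6% in WWOX.

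The regions that carried the most reads in each gene are shown first, because the read count of each of these genes rested on a few of them. The deposited sequences are on the plus strand of hg38, and all 604 member regions were identical to hg38 at their coordinates. Capitals mark the EcoRI site GAATTC, which reads the same on both strands. Of the 16 regions with the most reads (1 per gene and group), 15 contained an EcoRI site, 6 were masked as repeats over more than 50% of their length, and each occurred exactly 1 time in hg38. They were from 37 to 116 bases long. All lay in introns except the hemin region of MACROD2, which fell in an annotated exon. Whether that exon is coding was not recorded. The hemin region of IMMP2L was seen in 1 library only, with 0 reads in hemin replicate 1 and 21 in hemin replicate 2. A WWOX region with many reads in all 4 libraries is added as a shared contact. A pair of DLG2 regions at opposite ends of 1 EcoRI fragment is added too, 1 with untreated reads and 1 with hemin reads.
FHIT, most reads in the untreated libraries, chr3:60780810-60780888: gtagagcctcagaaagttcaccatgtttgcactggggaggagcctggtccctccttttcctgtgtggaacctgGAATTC
FHIT, most reads in the hemin libraries, chr3:60811392-60811470: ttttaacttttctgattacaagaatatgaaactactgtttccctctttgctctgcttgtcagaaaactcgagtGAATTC
WWOX, most reads in the untreated libraries, chr16:78109389-78109501: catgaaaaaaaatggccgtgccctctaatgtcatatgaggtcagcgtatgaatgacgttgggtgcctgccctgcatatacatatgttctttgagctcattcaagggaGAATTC
WWOX, most reads in the hemin libraries, chr16:79080939-79081006: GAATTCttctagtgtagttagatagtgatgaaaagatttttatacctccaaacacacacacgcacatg
WWOX, shared by all 4 libraries, chr16:78624055-78624133: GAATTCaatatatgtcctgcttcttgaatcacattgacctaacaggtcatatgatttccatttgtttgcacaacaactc
MACROD2, most reads in the untreated libraries, chr20:15378927-15378963: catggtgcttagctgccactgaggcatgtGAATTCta
MACROD2, most reads in the hemin libraries, chr20:14493792-14493855: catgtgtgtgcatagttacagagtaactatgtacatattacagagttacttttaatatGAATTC
IMMP2L, most reads in the untreated libraries, chr7:110915576-110915689: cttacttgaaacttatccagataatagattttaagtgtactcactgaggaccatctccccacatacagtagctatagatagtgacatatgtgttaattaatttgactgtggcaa
IMMP2L, most reads in the hemin libraries, chr7:111260634-111260710: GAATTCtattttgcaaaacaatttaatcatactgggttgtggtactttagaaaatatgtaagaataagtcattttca
LRP1B, most reads in the untreated libraries, chr2:141643696-141643811: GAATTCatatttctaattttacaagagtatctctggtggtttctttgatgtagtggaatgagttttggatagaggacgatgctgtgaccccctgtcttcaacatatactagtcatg
LRP1B, most reads in the hemin libraries, chr2:140957695-140957793: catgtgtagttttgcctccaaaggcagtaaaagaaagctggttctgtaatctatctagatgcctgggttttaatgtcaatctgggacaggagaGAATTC
CTNNA3, most reads in the untreated libraries, chr10:67382001-67382079: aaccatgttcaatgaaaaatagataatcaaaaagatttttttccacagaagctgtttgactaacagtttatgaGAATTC
CTNNA3, most reads in the hemin libraries, chr10:67109950-67110032: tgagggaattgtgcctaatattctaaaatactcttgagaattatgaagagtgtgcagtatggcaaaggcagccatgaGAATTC
DLG2, most reads in the untreated libraries, chr11:83624931-83624999: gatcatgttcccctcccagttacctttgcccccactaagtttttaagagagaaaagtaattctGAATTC
DLG2, most reads in the hemin libraries, chr11:84134089-84134178: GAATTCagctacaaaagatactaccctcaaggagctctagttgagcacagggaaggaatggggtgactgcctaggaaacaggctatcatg
DLG2, untreated end of 1 fragment, chr11:83738611-83738689: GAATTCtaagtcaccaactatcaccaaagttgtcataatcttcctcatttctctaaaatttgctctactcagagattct
DLG2, hemin end of the same fragment, chr11:83739064-83739144: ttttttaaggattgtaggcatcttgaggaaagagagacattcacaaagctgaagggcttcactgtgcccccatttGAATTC
NBEA, most reads in the untreated libraries, chr13:35454339-35454437: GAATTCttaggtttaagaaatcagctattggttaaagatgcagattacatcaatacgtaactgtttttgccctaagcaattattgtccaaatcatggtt
NBEA, most reads in the hemin libraries, chr13:35171708-35171786: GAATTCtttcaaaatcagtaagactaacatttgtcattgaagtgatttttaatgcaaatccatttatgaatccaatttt

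Among the 8 genes, NBEA and LRP1B had the largest relative rises in contact reads after hemin, IMMP2L lost nearly all of its reads, and DLG2 and FHIT fell. WWOX, MACROD2 and CTNNA3 rose less. In total, 5 genes rose and 3 fell by DESeq2 and also by edgeR. Such calls were common in these libraries. By DESeq2's Wald test, 76.3% of 11006 genes passed an adjusted p under 0.05, 40.9% higher and 35.4% lower after hemin, and by edgeR's quasi-likelihood test 61.8% of 12455 genes did, 32.9% higher and 28.9% lower. Among other protein-coding genes of at least 500 kb, 87.8% of 311 passed in DESeq2 (46.6% higher, 41.2% lower) and 77.2% of 312 in edgeR (40.7% higher, 36.5% lower). A call in all 8 genes is therefore close to what genes of this length showed in general.

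**Figure D1:**
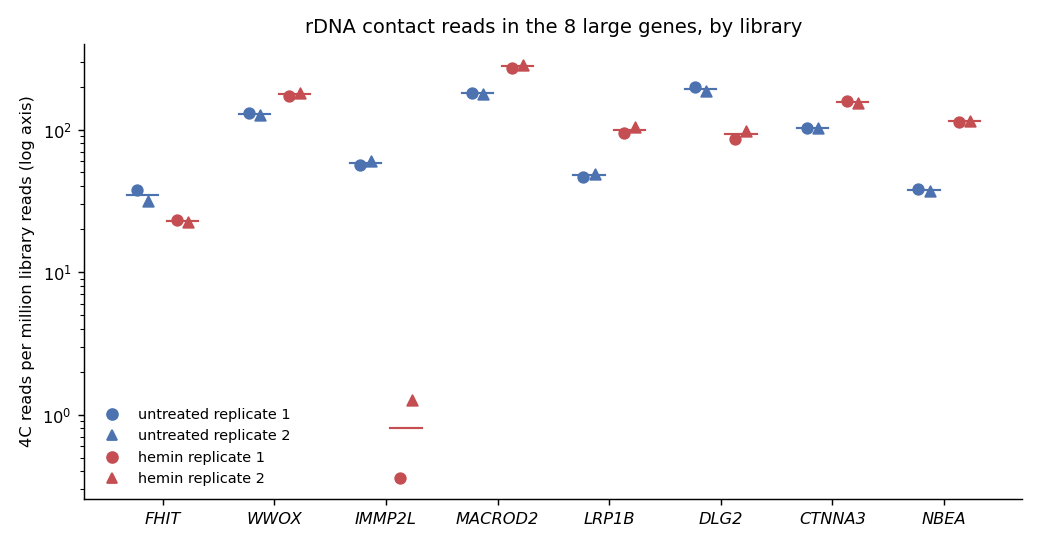
Contact reads of each gene divided by the total reads of the library, on a log axis, with 1 point per library (circles replicate 1, triangles replicate 2) and a line at the mean of each group. The replicates of a group lie close together except for hemin in IMMP2L, where the reads were 7 and 26. No gene shown has overlapping groups. How often the groups overlap was not counted over all genes or over the other long genes.

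No scaling tried changed the direction of any of the 8 genes, but the size of a change is read against that of all genes. Over every gene tested, the log2 fold change had a median of 0.58 in DESeq2, 0.36 over the 8 genes and 0.18 over the other long genes. With scaling by TMM or by total reads, the median of all genes was 0.52 or 0.76, and in edgeR it was 0.33. LRP1B and NBEA lay above this median in each of these fits. WWOX lay below it in each, and MACROD2 and CTNNA3 lay below it in all but the edgeR fit. All directions given here are those of the fitted values, before this median is taken off.

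FHIT, which encodes a dinucleoside triphosphate hydrolase and is a known tumour suppressor, held 1188 and 1080 reads in untreated replicates 1 and 2 and 455 and 459 in hemin replicates 1 and 2. Both untreated libraries were above both hemin libraries. The normalized read count was 936 ± 81.0 (SD, n = 2) untreated and 543 ± 27.6 (SD, n = 2) with hemin, a log2 fold change of -0.79 (SE 0.13). The DESeq2 adjusted p was 1.14e-09 and the edgeR adjusted p was 0.00587. With repeat-filtered regions only, the fall was larger (log2 fold change -2.91, DESeq2 adjusted p = 4.06e-38), since 1 of the 2 strong untreated regions but neither of the strong hemin regions was kept. With the replicate number as a block, the call was lost (log2 fold change -0.78, DESeq2 adjusted p = 0.161).

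WWOX, a tumour suppressor that encodes an oxidoreductase with WW domains, held 4152 and 4269 reads untreated and 3387 and 3733 with hemin. The raw reads were lower after hemin, but the hemin libraries were also smaller, so that the normalized read count was 3474 ± 1.54 (SD, n = 2) untreated and 4223 ± 49.3 (SD, n = 2) with hemin. The log2 fold change was 0.28 (SE 0.04), with a DESeq2 adjusted p of 1.74e-13 and an edgeR adjusted p of 0.0198. This small rise did not pass without untreated replicate 1 (0.098, DESeq2 adjusted p = 0.263) or without untreated replicate 2 (0.098, DESeq2 adjusted p = 0.249).

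MACROD2 encodes a macrodomain enzyme that removes mono-ADP-ribose from proteins. It held the most reads of the 8 genes, at 5713 and 6070 untreated and 5290 and 5867 with hemin. Normalized reads were 4859 ± 115 (SD, n = 2) untreated and 6616 ± 106 (SD, n = 2) with hemin, a log2 fold change of 0.45 (SE 0.04). The DESeq2 adjusted p was 6.73e-27 and the edgeR adjusted p was 0.00491.

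IMMP2L encodes a catalytic subunit of the peptidase of the inner mitochondrial membrane. It held 1797 and 2037 reads untreated, and only 7 and 26 with hemin. The normalized read count fell from 1580 ± 110 (SD, n = 2) to 19.2 ± 14.8 (SD, n = 2), 82.5-fold, with a log2 fold change of -6.35 (SE 0.49). The DESeq2 adjusted p was 8.82e-38 and the edgeR adjusted p was 0.00576. The region with the most untreated reads, 1089 and 1224, was fully masked as repeat and had no EcoRI site within 100 bases. It is not among the repeat-filtered regions of the authors. With repeat-filtered regions only, both hemin libraries held 0 reads, so that only a limit can be given, a log2 fold change of -7.09 or lower when 3 reads per library stand for 0 (DESeq2 adjusted p = 5.18e-14). The size of the fall depended on which hemin library was used, at -5.54 without hemin replicate 1 and -7.36 without hemin replicate 2. The other strong contacts were chr7:111012099-111012177 with 260 and 247 untreated reads and chr7:110876482-110876548 with 267 and 289, and both held 0 reads in the hemin libraries.

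LRP1B encodes a large endocytic receptor of the low-density lipoprotein receptor family. It held 1473 and 1667 reads untreated and 1857 and 2132 with hemin, the hemin libraries being higher even before scaling. Normalized reads averaged 1294 ± 88.3 (SD, n = 2) untreated and 2364 ± 95.8 (SD, n = 2) with hemin, a log2 fold change of 0.87 (SE 0.09). The DESeq2 adjusted p was 1.62e-21 and the edgeR adjusted p was 0.00353. With repeat-filtered regions only, the log2 fold change was -0.041 (DESeq2 adjusted p = 0.630). The hemin region with the most reads in LRP1B, 685 and 716, was masked over 63.6% of its length and is not among the repeat-filtered regions.

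CTNNA3 encodes alpha-T-catenin, which ties cadherin complexes to actin at cell junctions. It held 3245 and 3467 reads untreated and 3119 and 3153 with hemin. After normalization the count was 2768 ± 76.3 (SD, n = 2) untreated and 3726 ± 184 (SD, n = 2) with hemin. The log2 fold change was 0.43 (SE 0.07), with a DESeq2 adjusted p of 1.44e-10 and an edgeR adjusted p of 0.00720. It did not pass without untreated replicate 1 (0.22, DESeq2 adjusted p = 0.0721). LRRTM3, a gene for a neuronal adhesion protein that lies inside CTNNA3 (chr10:66926036-67101551), held 1667 and 1718 of the untreated reads and 0 and 16 of the hemin reads. When only regions that met a single gene were counted, the rise of CTNNA3 was larger, at a log2 fold change of 1.43 (DESeq2 adjusted p = 7.98e-71).

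DLG2 encodes a scaffold protein of the postsynaptic density. It held 6285 and 6319 reads untreated and 1691 and 2023 with hemin. Normalized reads fell from 5200 ± 80.0 (SD, n = 2) to 2199 ± 153 (SD, n = 2), 2.36-fold, with a log2 fold change of -1.24 (SE 0.07). The DESeq2 adjusted p was 7.20e-64 and the edgeR adjusted p was 0.00150. With repeat-filtered regions only, the log2 fold change was -2.17 (DESeq2 adjusted p = 6.03e-251). The number of regions did not fall with the reads, since DLG2 held 27 and 19 regions untreated and 28 and 22 with hemin, and these ranges overlap.

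NBEA encodes neurobeachin, a BEACH domain protein of membrane traffic to synapses. It held 1205 and 1261 reads untreated and 2199 and 2379 with hemin, so that the smaller hemin libraries still held more reads. The normalized read count rose from 1017 ± 13.1 (SD, n = 2) to 2716 ± 4.00 (SD, n = 2), 2.67-fold, with a log2 fold change of 1.42 (SE 0.05). The DESeq2 adjusted p was 1.80e-147 and the edgeR adjusted p was 0.000983.

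These calls rest on how many reads each region held. When each region was counted 1 time in place of its reads, no gene of the 12455 tested passed in DESeq2 (578 at an unadjusted p under 0.05) or in edgeR (3538), and IMMP2L, WWOX and NBEA had an unadjusted p under 0.05 by both tools. The reads are PCR products without molecular identifiers, so that the number of ligation events behind them is not known.

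The density of contact regions did not follow the reads in every gene. Over the 8 genes together it was 10.96 and 11.45 regions per Mb untreated and 13.49 in both hemin libraries, a mean of 11.2 ± 0.347 (SD, n = 2) against 13.5. The hemin libraries were higher by 2.29 regions per Mb, and the two-sided exact permutation test gave p = 0.333, the smallest value that 2 against 2 libraries allow. Among 315 other protein-coding genes of at least 500 kb, the median of the group means was 9.52 untreated, with quartiles of 5.84 and 15.4, and 10.9 with hemin, with quartiles of 6.49 and 16.8.

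WWOX went from 13 and 15 regions untreated to 28 and 30 with hemin, or from 12.6 ± 1.27 to 26.0 ± 1.27 regions per Mb (SD, n = 2). NBEA went from 9 and 4 regions to 17 and 19, or from 8.89 ± 4.84 to 24.6 ± 1.94 regions per Mb (SD, n = 2), and 5 of the 9 regions of untreated replicate 1 held 1 read. With hemin, both genes lay above the upper quartile of the other long genes, and untreated they lay within the quartiles. MACROD2 held 33 and 37 regions untreated and 43 and 49 with hemin, and its density lay above the upper quartile in both states. IMMP2L went the other way, from 10 and 15 regions to 2 and 3, or from 13.9 ± 3.93 to 2.78 ± 0.786 regions per Mb (SD, n = 2).

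FHIT was sparse in every library, with 9 and 8 regions untreated and 7 and 8 with hemin, and its density of 5.65 ± 0.470 and 4.99 ± 0.470 regions per Mb (SD, n = 2) lay under the lower quartile of the other long genes in both states. LRP1B held 15 and 16 regions untreated and 16 and 14 with hemin. CTNNA3 held 18 and 26 regions untreated and 24 and 20 with hemin, a mean of 11.9 regions per Mb in each state. In FHIT, LRP1B, CTNNA3 and DLG2 the libraries of the groups overlapped in their number of regions.

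**Figure D2:**
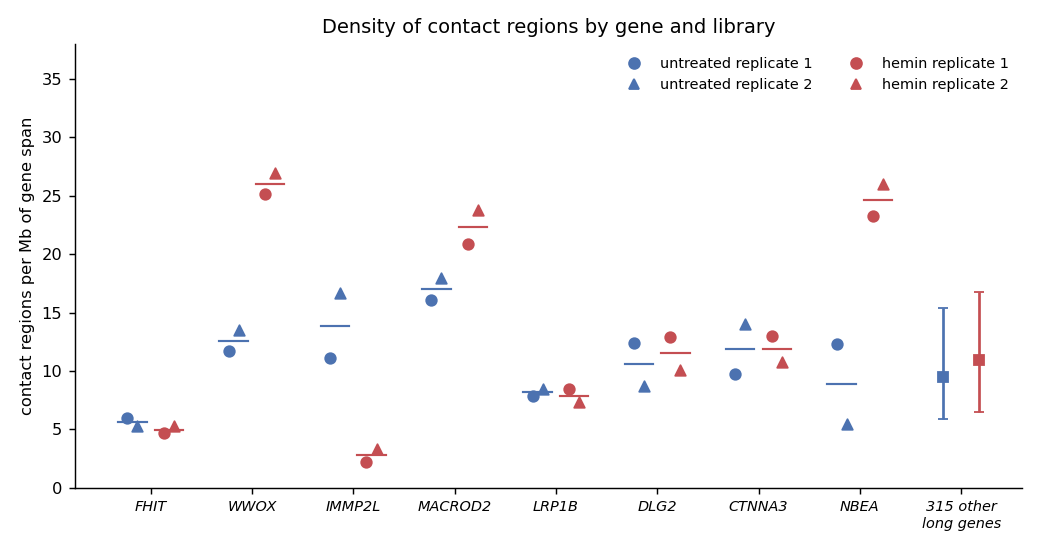
Contact regions per Mb of gene span for each of the 8 genes, with 1 point per library and a line at the group mean, beside the median of 315 other long protein-coding genes (squares) with bars from the lower to the upper quartile of the group means. WWOX and NBEA stand near 25 regions per Mb with hemin (26.0 and 24.6), and IMMP2L stands at 2.78.

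Within a gene, the reads were concentrated. The region with the most reads held 51.0% and 53.5% of the untreated reads of FHIT and 62.2% and 58.2% of its hemin reads. In IMMP2L it held 60.6% and 60.1% of the untreated reads. MACROD2 was the most even of the genes with hemin, where its top region held 13.2% and 13.0% of the reads, against 25.9% and 27.5% untreated. In CTNNA3 the share went from 38.1% and 39.9% to 20.0% and 20.7%, and in NBEA from 43.0% and 45.8% to 30.8% and 29.1%. In DLG2 it went up, from 23.7% and 23.0% to 31.9% and 32.6%. In WWOX it was 35.4% and 32.1% untreated and 27.5% and 24.9% with hemin, and in LRP1B 28.6% and 32.3% untreated and 36.9% and 33.6% with hemin. None of the 8 genes had the same top region in both states.

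The untreated and hemin contacts lay at different places in the same genes. Overlapping regions of the 4 libraries formed 345 sites, of which 97 were found in both untreated libraries only, 111 in both hemin libraries only, 9 in all 4 libraries, 119 in a single library and 9 in other combinations. Sites without any hemin read held 96.4% of the untreated reads, and sites without any untreated read held 93.2% of the hemin reads. The median distance from a recurring untreated site, one seen in both untreated libraries, to the nearest recurring hemin site was 75.7 kb. Of 107 recurring untreated sites, 14 had a recurring hemin site within 2.5 kb.

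Counted by regions, this separation was common to long genes. Of the 8 genes' regions that recurred in both replicates, 90.8% were found in 1 group only in each untreated library (99 of 109) and 90.4% in each hemin library (113 of 125). In the other long genes the share was from 89.7% to 91.5%, and over all regions of the libraries it was from 80.1% to 82.1%. Counted by reads, the values lay further apart. In the 8 genes, regions that met a region of the other group held 3.64% and 3.53% of the reads untreated and 6.97% and 6.60% with hemin. In the other long genes the share was 17.9% and 18.1% untreated and 10.2% and 9.66% with hemin. Over all regions of the libraries it was 81.9% and 82.3% untreated and 78.8% and 78.4% with hemin. The values of the 8 genes rested on few sites. The WWOX site at chr16:78624055-78624136 held 708 and 701 reads untreated and 301 and 281 with hemin. A CTNNA3 site with 575 and 604 hemin reads had untreated reads in replicate 2 only, numbering 20. A MACROD2 site with 324 and 356 hemin reads had 31, also in untreated replicate 2 only. In DLG2 and NBEA every recurring region was found in 1 group only, while in FHIT 6 of 8 recurring untreated regions and 4 of 6 recurring hemin regions were. The only recurring hemin region of IMMP2L was shared with the untreated libraries.

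**Figure D3:**
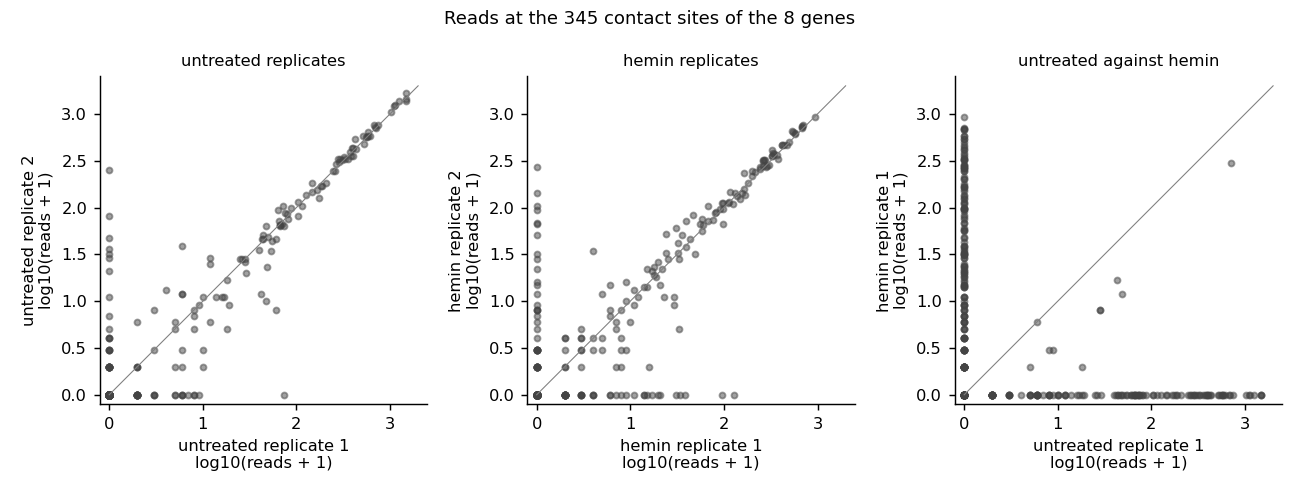
Reads at the 345 sites of the 8 genes as log10(reads + 1), replicate against replicate for untreated (left) and hemin (middle), and untreated replicate 1 against hemin replicate 1 (right), with the line of equal reads. Sites with many reads follow the line between replicates, whereas between the groups nearly all sites lie on an axis, with 0 reads in one of the libraries.

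Strong sites, with at least 100 reads in a library, numbered 100. Both untreated libraries reached this level at 45 sites, of which 44 held 0 reads in both hemin libraries. Both hemin libraries reached it at 46 sites, of which 43 held 0 reads in both untreated libraries. Strong sites of other long genes were not counted in this way, so whether this separation is particular to these genes was not tested. A single site was strong in all 4 libraries, in WWOX at chr16:78624055-78624136, with 708 and 701 reads untreated and 301 and 281 with hemin. The replicates of a group were close at the sites strong in both. The reads of replicate 2 were from 0.734 to 1.28 times those of replicate 1 untreated and from 0.804 to 1.44 times with hemin. The variance between replicates there averaged 2.20 times that of counting error alone untreated and 1.65 times with hemin. A spread this small goes into the SDs and adjusted p values given for the genes. Whether further cultures would differ by more was not tested. Only 5 strong sites were found in a single library, with 104 to 267 reads, and 4 of them were fully masked as repeats.

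Of the 100 strong sites, 93 had an EcoRI site within 100 bases, against 48.5% to 54.5% of all member regions of a library. Repeats covered more than 50% of 40 strong sites, and 65 overlapped a repeat-filtered region of the authors. In the 8 genes 2 sites touched an exon. They were the MACROD2 site described above, with 698 and 762 hemin reads, and a DLG2 site with 15 and 1 hemin reads.

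On some fragments most reads lay at one end in untreated cells and at the other end after hemin. Each such fragment held reads in both states, although its ends count as separate sites. In DLG2, an EcoRI fragment of 528 bases held 188 and 169 untreated reads at chr11:83738611-83738690 and 258 and 312 hemin reads at chr11:83739064-83739144, and each end held 0 reads in the other group. In MACROD2, a fragment of 9867 bases held 267 and 322 hemin reads at one end and 679 and 752 untreated reads at the other, again with 0 reads of the other group. In LRP1B, a fragment of 649 bases held 90 and 96 hemin reads at one end and 103 and 114 untreated reads at the other, with 0 reads of the other group at both ends, and a site between them was seen in all 4 libraries, with 17 and 16 reads untreated and 1 and 2 with hemin. Counted by EcoRI fragment, 66 fragments of the 8 genes held recurring untreated sites, 71 held recurring hemin sites, and 8 held both. No such count was made for the fragments of other genes.

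The position of the reads along the gene also shifted. It was measured as the share of reads in the last of 3 equal parts of the gene span, farthest from the 5′ end. WWOX held 10.8% and 9.51% of its untreated reads there and 56.0% and 51.7% of its hemin reads. Its strongest untreated region, with 1470 and 1370 reads, lay 10.0 kb from the 5′ end, and its strongest hemin region, with 933 and 931 reads, lay 981.6 kb from it. IMMP2L held 83.3% and 80.9% of its untreated reads in the last part and none of its hemin reads, which numbered 7 and 26 in all.

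MACROD2 moved from 59.9% and 59.4% in the last part to 40.2% and 38.9%, and LRP1B from 22.4% and 19.1% to 6.14% and 8.68%. DLG2 moved in the opposite direction, from 53.9% and 53.6% to 68.3% and 79.8%. FHIT had 37.1% and 40.6% untreated and 26.2% and 31.8% with hemin, NBEA had 43.0% and 45.8% and then 36.4% and 38.1%, and CTNNA3 had 2.90% and 2.19% and then 6.70% and 7.45%. The groups did not overlap in any of the 8 genes, and in each gene the two-sided exact permutation test gave p = 0.333, which is the smallest it can give. These shares were not computed for other long genes, so whether such shifts are particular to the 8 genes was not tested. Over the 8 genes together the share was 40.4% and 40.0% untreated and 35.7% and 36.9% with hemin. The number of regions in the last part did not follow these shares in every gene. In DLG2 it was 14 and 10 untreated and 9 and 11 with hemin. LRP1B held 4 and 5 regions there and then 6 and 6, and NBEA 1 and 1 and then 7 and 7. MACROD2 held 13 and 12 and then 14 and 14, and WWOX 3 and 4 and then 14 and 13. IMMP2L held 4 and 5 and then 0 and 0. FHIT had 2 and 2 in both states and CTNNA3 4 and 6 in both.

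**Figure D4:**
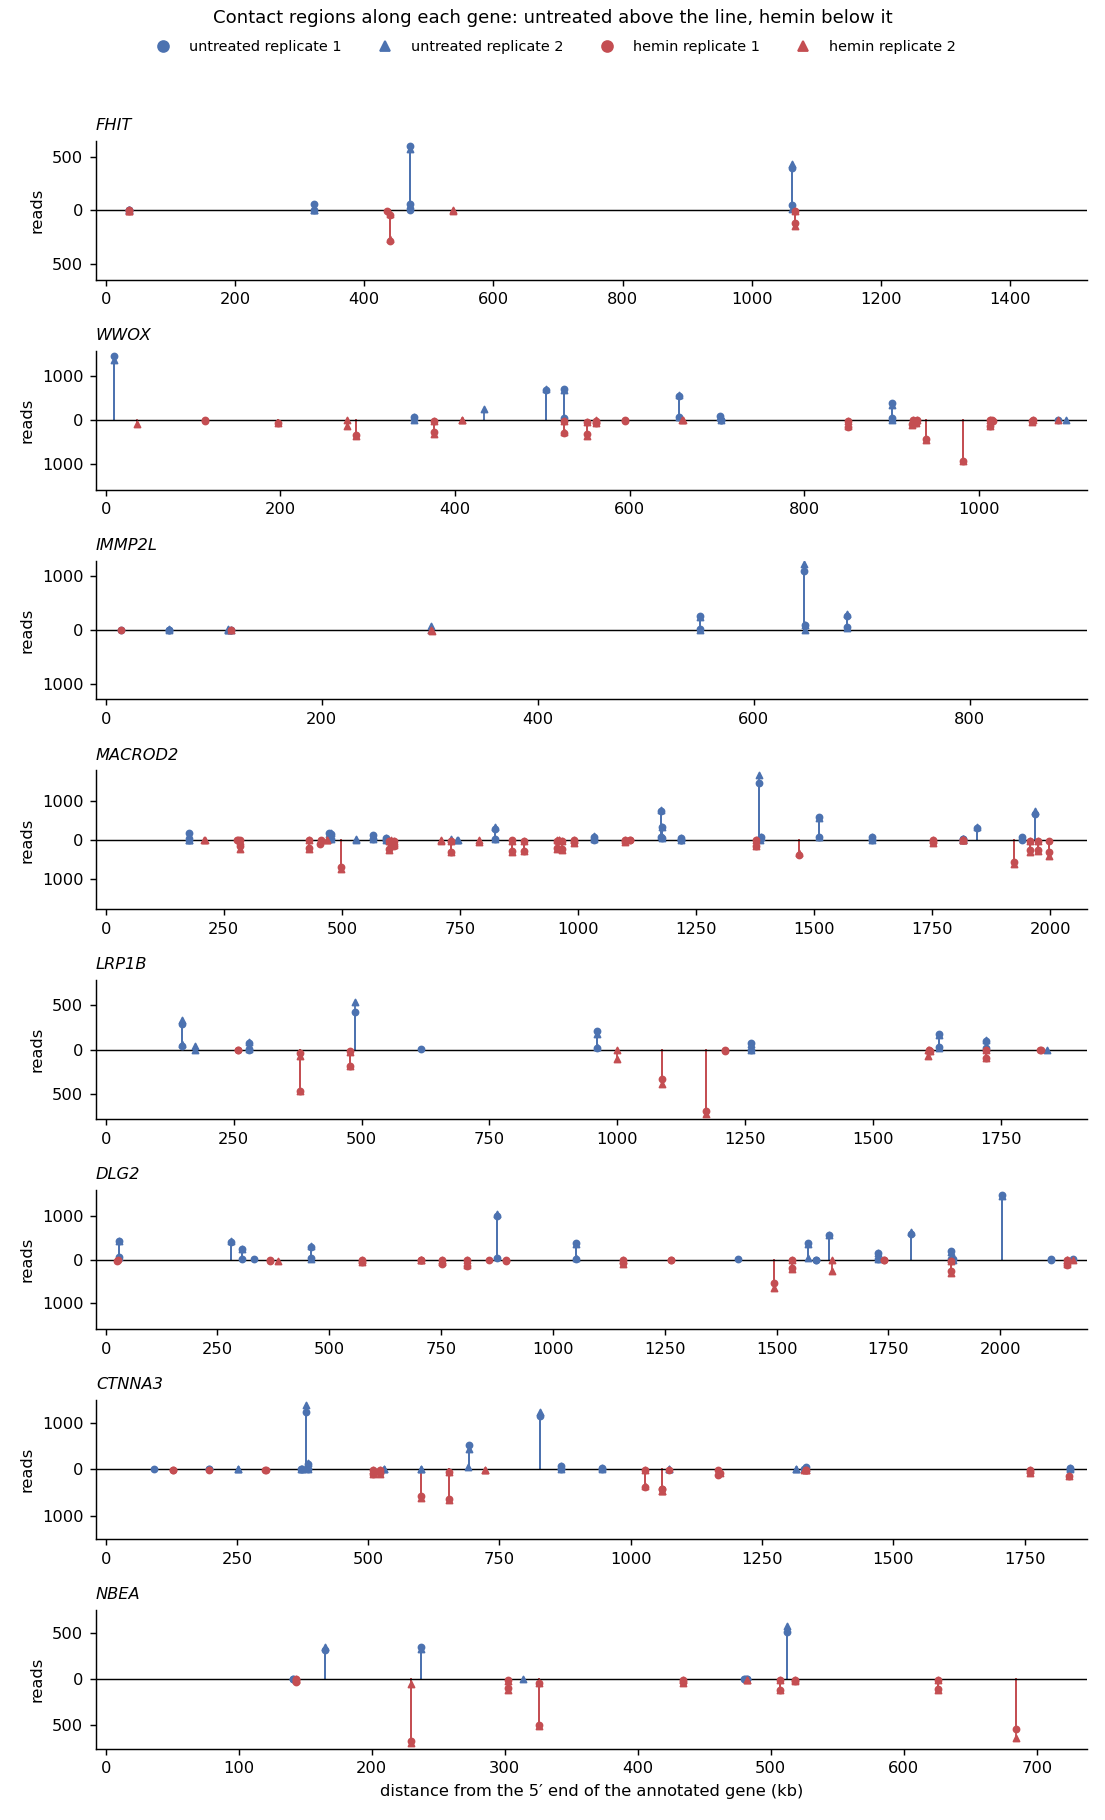
Contact regions along each gene, with the distance from the annotated 5′ end in kb on the horizontal axis and reads on the vertical axis, untreated above the line and hemin below it, 1 point per region and library. Tall untreated and hemin stems rarely stand at the same place, and FHIT has an empty stretch from 537.6 to 1061.5 kb.

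Long stretches of these genes had no contact region in any library. In FHIT the longest ran from 537.6 to 1061.5 kb from the 5′ end, 523.9 kb or 34.8% of the gene with 129 EcoRI sites, and was bordered on its far side by an untreated site at chr3:60189858-60189910 with 46 and 9 reads. The number of copies of these genes in the K562 cells used was not measured, so that an empty stretch or a low density cannot be told apart from missing DNA in these data. The longest empty stretch was 427.2 kb in CTNNA3, 344.5 kb in LRP1B, 249.7 kb in DLG2 and 248.2 kb in IMMP2L. In MACROD2 and NBEA it began at the 5′ end, at 177.0 kb and 140.7 kb, and in WWOX it was 145.2 kb.

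Other genes nested in the 8 took part of the reads as well. A long non-coding RNA gene in WWOX, ENSG00000261537, collected 445 and 403 reads from untreated cells and 0 and 0 from hemin cells. In DLG2 another one, ENSG00000254787, collected 1026 and 1050 reads untreated and 35 and 0 with hemin. In MACROD2, 3 long non-coding RNA genes held from 20.7% to 30.9% of the reads of a library, among them MACROD2-IT1 with 185 and 158 reads untreated and 456 and 520 with hemin. In FHIT, IMMP2L, LRP1B and NBEA no read lay in another annotated gene.

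A list of 20 other large genes at common fragile sites gave 9 genes higher and 7 lower after hemin by DESeq2, and 9 higher and 6 lower by edgeR, with a median log2 fold change of 0.29. CSMD1, which encodes a membrane protein with CUB and sushi domains, held 10124 and 10671 reads untreated and 7015 and 7035 with hemin, a log2 fold change of -0.039 (SE 0.06) that missed the threshold (DESeq2 adjusted p = 0.542, edgeR adjusted p = 0.154). GPHN, which encodes the inhibitory synapse scaffold gephyrin, held 10377 and 11111 reads untreated and 3870 and 4051 with hemin, a log2 fold change of -0.91 (SE 0.05; DESeq2 adjusted p = 8.06e-82, edgeR adjusted p = 0.000983).

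Among the other long protein-coding genes, those closest to the pooled density of the 8 genes over the 4 libraries were TRHDE, ULK4 and GRID1. The Euclidean distances of log2(regions per Mb + 1) were 0.26, 0.34 and 0.35. TRHDE held 12.0 and 10.3 regions per Mb untreated and 15.4 and 13.7 with hemin.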

How the data were processed

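The authors trimmed 4C primers and adapters with cutadapt 3.5, kept pairs in which a primer had been found, aligned them to hg38 with bwa 0.7.17-r1188 mem and wrote covered regions with their own scripts. The deposited count of reads per region and library, with mates counted singly, is not normalized, and neither removal of PCR duplicates nor a mapping quality filter is described, so that a read from a repeat may sit at 1 of several copies. The deposited coverage signal per region was not used as a measure, and the deposited repeat-filtered signal of each group served only to mark regions that passed the authors' repeat filter. Columns without a sample or group numbered 0.

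Genes came from GENCODE release 44. The reads of a region went to every gene whose span it overlapped. Hemin and untreated libraries were compared over all genes with DESeq2 1.42.0 in R 4.3.3 (Wald test, local fit of the dispersion, no term other than treatment, Benjamini-Hochberg adjusted p under 0.05) and with edgeR 4.0.16 (quasi-likelihood, TMM). Normalized read counts are counts divided by the DESeq2 size factors. Densities and shares were compared by two-sided exact permutation over libraries. A limit of 3 reads per library stood for a count of 0. Intervals and limits cover counting error only. Python 3.11.15 was used for overlaps and permutation, with pandas 2.3.3, numpy 2.4.6, pysam 0.24.0 and scipy 1.17.1. Figures were drawn in matplotlib 3.10.9.

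Both tools were first tested on simulated data of 11645 genes, 200 of them changed. DESeq2 recovered 57.8% of the genes changed 2-fold and 71.4% of those changed 4-fold, with 62.1% of its calls false, and edgeR recovered 1.83% and 30.8%, with 14.3% of its calls false. The DESeq2 calls included 1.89% of the unchanged genes, and the edgeR calls 0.0437%. The shares of recovered genes and of false calls hold for 200 changed genes. In the data far more genes were called, 76.3% in DESeq2 and 61.8% in edgeR, so these shares do not describe those calls.

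The 8 genes, the list of 20 other fragile-site genes and the tests were chosen with earlier results of these data known. By the rule for named genes, the text names the 8 genes, the 3 genes of that list with the most summed reads, and the 3 other long genes (at least 500 kb) with the most similar region density. An item that this rule names is not reported here. Alternatives covered the test, the scaling, the filter on low counts, the assignment to genes, counting each region 1 time, the replicate number as a block, repeat-filtered regions and omission of single libraries. Expression data of the same study were not used here.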

Additional observations from a re-analysis of the deposited data

How the results depend on the processing

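The directions and calls of the 8 genes were recomputed under the alternatives. Without 1 library in turn, 29 of 32 gene values kept their direction and call and 3 lost the call, and under the other settings 62 of 80 did, 12 lost the call and 6 changed direction. Without each library in turn, from 3 to 5 of the 8 genes were higher after hemin (3 without untreated replicate 1) and 3 were lower in each, and the log2 fold change ranged from -7.36 to -5.54 in IMMP2L, from 0.098 to 0.49 in WWOX and from 0.22 to 0.63 in CTNNA3. Counting each region 1 time gave 0 genes higher and 0 lower over all genes and over the 8, in DESeq2 and in edgeR. The DESeq2 and edgeR log2 fold changes were then -0.18 and -0.26 for FHIT, 1.05 and 0.96 for WWOX, -2.32 and -2.35 for IMMP2L, 0.39 and 0.31 for MACROD2, -0.047 and -0.13 for LRP1B, 0.12 and 0.036 for DLG2, 0 and -0.084 for CTNNA3, and 1.47 and 1.37 for NBEA. LRP1B, DLG2 and, in edgeR, CTNNA3 changed direction there, and the number of regions is smaller than the number of reads by construction. With repeat-filtered regions, LRP1B was at -0.041, without its strongest hemin region, and FHIT and DLG2 fell further, to -2.91 and -2.17.

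The share of recurring regions in 1 group only was 92.5% untreated and 93.6% hemin for regions of at least 10 reads, 95.0% and 93.1% for repeat-filtered regions, and 86.2% and 85.6% when regions within 2.5 kb counted as shared. The median share of the top region over the 8 genes was 36.4% untreated and 31.1% hemin, and that of the 2 top regions was 62.6% and 51.5%.

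With the replicate number as a block, FHIT had a log2 fold change of -0.78 (DESeq2 adjusted p = 0.161), and the block changed no other call among the 8 genes. Neither the labels nor the study say whether libraries with the same number shared a preparation. Their deviations from the group means correlated at 0.024 over 6502 genes, which does not decide this. With 2 libraries per group, no exact test of a single value can go below p = 0.333. The smaller hemin libraries (19548906 and 20577487 reads) limit what can be said of absent contacts, since a site with 0 reads there may hold up to 3.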
